A study of Homo sapiens with 18 samples.

Results

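HepG2, a human hepatoma cell line that keeps many hepatocyte functions, was compared between 48 h and 24 h at 1% oxygen, so that both groups were hypoxic and differed in the length of the exposure. The 6 libraries of this step were chosen by their labels as HepG2 at 24 h (n = 3) and HepG2 at 48 h (n = 3), out of 18 poly(A) RNA-seq libraries in 6 groups of 3. The other groups were HepG2 at 0 h (21% oxygen) and the edited line at 0 h, 24 h and 48 h. APOA4-KO was derived from HepG2 by CRISPR-Cas9 directed at exons of APOA4, an apolipoprotein of triglyceride-rich particles, and single colonies were selected. None of the 18 libraries was HepG2 at 24 h or 48 h in 21% oxygen, so longer hypoxia and longer time in culture cannot be told apart. The labels do not say whether the replicates were separate cultures. The p-values rest on the spread between replicate libraries, estimated over all 18 libraries, and this spread may be technical.

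When oxygen falls, the prolyl hydroxylases of the EGLN family stop marking the alpha subunits HIF1A and EPAS1 for degradation by VHL, and the stabilised subunits pair with ARNT to switch on genes for glucose uptake, glycolysis, angiogenic factors and mitophagy. Several of these targets, among them EGLN1, EGLN3 and the lysine demethylase KDM3A, feed back on the response. In hepatocytes a long hypoxic exposure is also known to act on lipid storage, on amino acid and protein-folding stress pathways, on cell division and on the secretion of plasma proteins.

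The 6 libraries held 79261514 to 91604947 counts each. The libraries of the 2 times separated on the first principal component, which held 28.6% of the variance, while HepG2 24 h replicate 3 and HepG2 48 h replicate 1 stood apart from the others on the second (20%). Messenger RNAs of the mitochondrial genome took 7.27% to 7.39% of the counts at 24 h and 4.76% to 4.95% at 48 h, and the 10 most abundant genes took 16.4% at 24 h and at most 13.1% at 48 h. All 10 hepatocyte-derived markers were detected, with a summed level of 13649 to 13714 FPKM (fragments scaled to gene length and library size) at 24 h and 14317 to 14410 FPKM at 48 h. Markers of fibroblasts (5.78 to 7.10 FPKM in sum), macrophages (22.96 to 24.2 FPKM), endothelium (1.40 to 1.73 FPKM) and lymphocytes (2.29 to 2.94 FPKM) were low at both times, with MARCO at 0. In these 4 lists none of the 24 tested members was higher at 48 h, and VWF and PDGFRB, 2 of them, were lower. The shares over all genes tested were 18.7% higher and 11.9% lower (edgeR, adjusted p under 0.05). The 5 cholangiocyte markers summed to 287 to 296 FPKM at 24 h and 383 to 387 FPKM at 48 h. The keratin KRT19 rose (log2 fold change 0.51), CFTR was at 0. EPCAM was lower (-0.15) with overlapping groups, and it lost the test in 7 settings, among them library sizes alone (-0.06, adjusted p = 0.383). The part of these markers in the results was not tested.

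Of 19743 genes tested, 418 (2.12%) changed by at least 2-fold at an adjusted p under 0.05. Of these, 136 (0.689% of the genes tested) were higher at 48 h and 282 (1.43%) were lower. Without the limit on the fold, 3685 genes (18.7%) were higher and 2341 (11.9%) were lower, and the median log2 fold change over all genes was 0.01. In bulk RNA, fewer cells of a type and less RNA per cell cannot be told apart. A mean under 500 counts in the group with the higher level was found for 77 of the 136 higher genes (56.6%), 226 of the 282 lower genes (80.1%) and 48.8% of all genes tested. With library sizes alone in place of TMM scaling, the numbers past both limits became 192 higher and 238 lower, and those past the adjusted p alone 5161 and 1611. Without HepG2 24 h replicate 3 the counts past both limits were 145 and 250, and without HepG2 48 h replicate 1 they were 134 and 244.

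**Figure D1:**
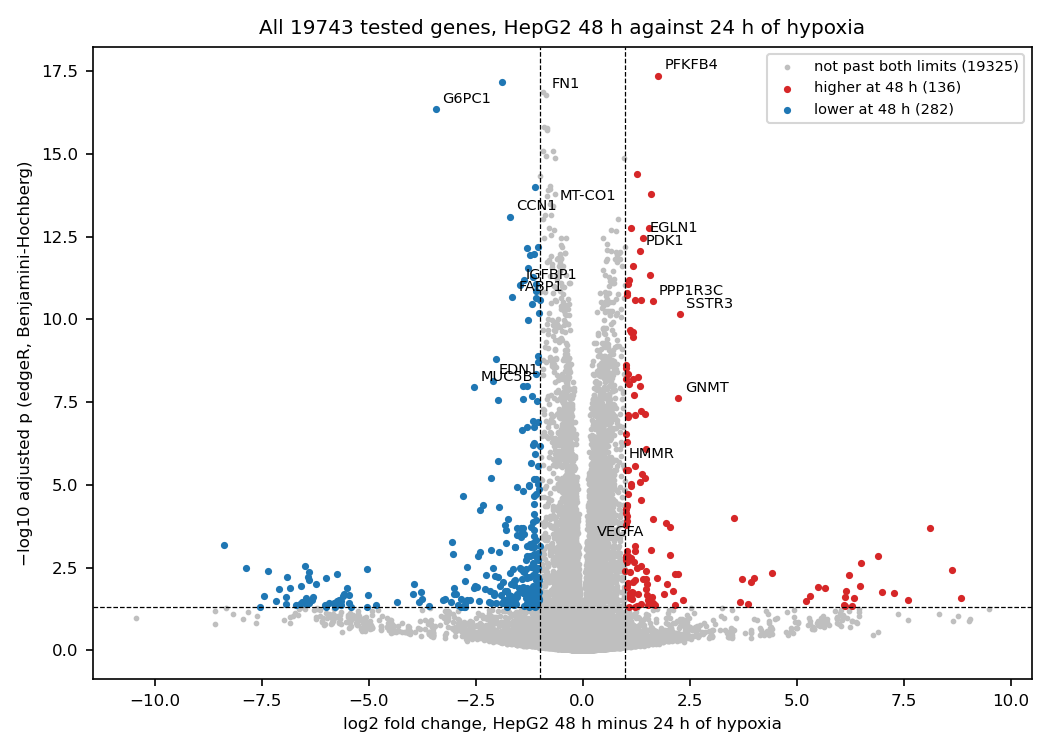
Each point is 1 of the 19743 tested genes, placed by its log2 fold change between HepG2 at 48 h and 24 h of hypoxia and by the −log10 of its adjusted p (edgeR). The 136 genes higher and the 282 lower past both limits (dashed lines) are coloured, and PFKFB4 (log2 fold change 1.77, adjusted p = 4.37e-18) and G6PC1 (-3.42, adjusted p = 4.38e-17) stand among the smallest p-values.

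Most genes of glucose uptake and glycolysis were higher at 48 h than at 24 h, and G6PC1 fell 10.7-fold. Of 24 glycolysis genes, 19 were higher and none lower (median log2 fold change 0.24), against 18.7% and 11.9% of all genes tested. The largest increase was that of PFKFB4, a kinase and phosphatase that sets the level of the glycolytic activator fructose-2,6-bisphosphate. PFKFB4 stood at 117, 116 and 116 CPM (counts scaled to the effective library size by TMM) in the 3 libraries at 24 h and at 395, 394 and 397 CPM at 48 h, a log2 fold change of 1.77 (SE 0.0269, adjusted p = 4.37e-18). The groups were far apart against a spread of 0.633 and 1.62 CPM (SD). Its paralog PFKFB3 rose from 38.2, 39.3 and 37.2 CPM to 122, 114 and 112 CPM, a log2 fold change of 1.61 (SE 0.0467, adjusted p = 1.63e-14). PDK1, which closes the entry of pyruvate into the mitochondrial citrate cycle, rose from 33.7, 34.8 and 33.2 CPM to 88.2, 81.2 and 86.5 CPM (log2 fold change 1.33, SE 0.0515, adjusted p = 8.90e-13). No library at 24 h reached a library at 48 h in any of these genes, which was a condition for naming PFKFB4 and PFKFB3, and the groups did not overlap in 42.8% of all genes tested. HK2, the hexokinase that traps glucose in the cell, rose from 169 ± 1.64 to 330 ± 3.07 CPM (SD, n = 3).

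Other members changed less. SLC2A1, the glucose transporter, stood at 882, 846 and 849 CPM at 24 h and 1059, 1038 and 1030 CPM at 48 h (log2 fold change 0.28, adjusted p = 8.03e-09). The enolase ENO1 (0.05), the lactate dehydrogenase LDHA (0.19) and the aldolase ALDOA (0.20) had still smaller positive log2 fold changes. GAPDH had a log2 fold change of 0.00 and did not pass the test. With DESeq2's size factors the median over all genes moved from 0.01 to -0.02, so a change as small as that of ENO1 depends on the scaling.

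In the list of gluconeogenesis and glycogen the median log2 fold change was 0.22. Of 18 tested genes, 7 were higher and 4 lower, against 18.7% and 11.9% of all genes tested. Those that rose the most act on glycogen: the glycogen synthase GYS1 went from 90.2, 86.0 and 88.2 CPM to 220, 210 and 208 CPM, a log2 fold change of 1.27 (SE 0.0335, adjusted p = 4.13e-15). PPP1R3C, a targeting subunit that brings protein phosphatase to glycogen, went from 11.1, 13.2 and 12.6 CPM to 36.5, 40.5 and 37.9 CPM (1.64, SE 0.0826, adjusted p = 2.77e-11). UGP2 (0.80) and the branching enzyme GBE1 (0.77) rose as well.

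The last enzyme of glucose release went the other way. G6PC1, the glucose-6-phosphatase of the liver, stood at 78.1, 74.9 and 75.9 CPM at 24 h and at 6.56, 7.12 and 7.65 CPM at 48 h. Its log2 fold change of -3.42 (SE 0.0653, adjusted p = 4.38e-17), a 10.7-fold decrease, was the largest of all genes that averaged 500 counts or more where they were higher, had 10 or more in every library and did not overlap between the groups. At 0 h the same gene stood at 11.3 ± 1.25 CPM (SD, n = 3), so that the 24 h level was the highest of the 3 times. PCK1, the cytosolic entry enzyme of gluconeogenesis, was near 1 CPM: 1.78, 1.80 and 1.51 CPM at 24 h and 0.553, 0.866 and 1.26 CPM at 48 h (log2 fold change -0.93, adjusted p = 0.000881). Its adjusted p was 0.0536 with a replicate block in the 6 libraries and 0.0932 in limma on log2(FPKM + 1).

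The sequences before the starts of 4 genes that rose and 2 that fell are shown because these genes are among the largest changes of glucose metabolism, oxygen sensing (EGLN1) and lipid handling (FABP1) and because the HIF dimers are known to bind a short core of the letters ACGTG, and also its variant GCGTG. Each is the 250 bases upstream of the start in RefSeq on GRCh38.p14, written 5′ to 3′ along the gene, with the core ACGTG and the core GCGTG, read on either strand, in capitals. The places are chr3:48556804-48557053 (minus strand) for PFKFB4, chr1:231422288-231422537 (minus) for EGLN1, chr19:48993310-48993559 (minus) for GYS1, chr10:91633072-91633321 (minus) for PPP1R3C, chr17:42900549-42900798 (plus) for G6PC1 and chr2:88128063-88128312 (minus) for FABP1.
PFKFB4: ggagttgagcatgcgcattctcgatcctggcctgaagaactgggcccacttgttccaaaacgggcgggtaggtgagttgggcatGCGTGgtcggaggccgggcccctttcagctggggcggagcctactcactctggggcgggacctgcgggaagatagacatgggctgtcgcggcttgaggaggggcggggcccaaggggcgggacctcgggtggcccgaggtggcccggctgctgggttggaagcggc
EGLN1: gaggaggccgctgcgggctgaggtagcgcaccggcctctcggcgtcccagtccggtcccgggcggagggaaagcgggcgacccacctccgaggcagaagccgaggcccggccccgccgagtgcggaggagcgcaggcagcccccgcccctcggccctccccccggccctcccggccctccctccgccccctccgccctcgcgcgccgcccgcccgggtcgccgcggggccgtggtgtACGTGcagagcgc
GYS1: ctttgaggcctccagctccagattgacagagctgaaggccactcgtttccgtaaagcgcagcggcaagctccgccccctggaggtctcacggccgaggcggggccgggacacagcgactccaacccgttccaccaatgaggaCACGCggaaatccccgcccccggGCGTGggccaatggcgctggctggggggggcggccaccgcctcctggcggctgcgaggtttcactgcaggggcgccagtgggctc
PPP1R3C: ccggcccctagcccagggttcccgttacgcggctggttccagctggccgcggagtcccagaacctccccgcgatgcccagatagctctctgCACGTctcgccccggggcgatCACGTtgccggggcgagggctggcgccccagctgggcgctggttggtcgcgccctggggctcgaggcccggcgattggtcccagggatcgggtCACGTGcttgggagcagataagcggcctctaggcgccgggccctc
G6PC1: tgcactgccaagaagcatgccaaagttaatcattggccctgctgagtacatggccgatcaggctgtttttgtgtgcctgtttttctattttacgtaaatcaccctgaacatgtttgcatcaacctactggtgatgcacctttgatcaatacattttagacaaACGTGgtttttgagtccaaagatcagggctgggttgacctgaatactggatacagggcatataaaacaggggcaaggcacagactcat
FABP1: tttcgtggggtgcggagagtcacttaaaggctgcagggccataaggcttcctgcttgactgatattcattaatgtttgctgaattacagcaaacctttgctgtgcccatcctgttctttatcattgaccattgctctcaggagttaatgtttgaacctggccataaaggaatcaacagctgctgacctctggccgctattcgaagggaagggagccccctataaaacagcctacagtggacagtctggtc
PFKFB4, EGLN1 and G6PC1 held 1 such match each, GYS1 held 2, PPP1R3C held 4 (2 of them the same CACGTG read on both strands) and FABP1 held none. Among the 24 genes with the largest changes, 10 of 13 listed starts of the increases (76.9%, 9 genes) and 6 of 16 listed starts of the decreases (37.5%, 9 genes) held a match. The share was 43.2% over all 35116 RefSeq starts and 52.9% over the starts of the tested genes. Over all genes past both limits it was 48.3% of 120 starts for those higher at 48 h and 49.8% of 239 starts for those lower, both below the share of the tested genes. A match is only a run of letters and not a site of binding.

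The 12 largest increases among genes with at least 500 counts also held genes outside glucose metabolism. SSTR3, a somatostatin receptor, rose from 2.40, 2.51 and 2.30 CPM to 10.9, 12.6 and 11.2 CPM (log2 fold change 2.27, SE 0.122, adjusted p = 7.00e-11). GNMT, the glycine N-methyltransferase that consumes the methyl donor S-adenosylmethionine in the liver, rose from 2.39, 2.104 and 2.05 CPM to 9.66, 11.5 and 9.73 CPM (2.24, SE 0.184, adjusted p = 2.36e-08). Their means at 0 h were 8.05 CPM and 13.8 CPM. PLEKHA2 (1.55), the fucosyltransferase FUT11 (1.57) and the endoplasmic reticulum protein ERP27 (1.45) rose by these log2 fold changes.

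For 3 of the 12 the increase is less certain. GPR146, a G protein-coupled receptor, stood at 2.84, 2.18 and 0.557 CPM at 24 h and 8.37, 6.97 and 6.29 CPM at 48 h (1.95, adjusted p = 0.000146), but 50.3% of its exon bases lie in other genes too. ARPIN-AP3S2, a read-through annotation, has 99.96% of its exon bases inside other genes, and its adjusted p rose from 0.0241 to 0.107 without HepG2 24 h replicate 3 and to 0.0528 without HepG2 48 h replicate 2. HERC3 stood at 0.286, 4.57 and 4.96 CPM at 24 h, with replicate 1 far below the other two. Its adjusted p of 0.0414 became 0.0602 to 0.0886 when a 48 h replicate was left out, and 0.0791 in DESeq2. In edgeR it was 0.104 with only the 6 libraries of the step and 0.115 with only the 9 HepG2 libraries. HERC3 lost the test in 9 settings.

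The 12 largest decreases were led by G6PC1 and held secreted, mucin and transporter genes. The 5 that follow it were MUC5B and MUC13, 2 mucins, EDN1, which encodes endothelin-1, DEPP1, an autophagy regulator and FOXO target, and SLC12A3, a sodium and chloride cotransporter. MUC5B fell from 9.66, 11.1 and 8.76 CPM to 1.90, 1.83 and 1.36 CPM (log2 fold change -2.53, SE 0.197, adjusted p = 1.09e-08). Its means were 0.497 and 0.09 FPKM, and across settings its log2 fold change ranged from -2.61 to -0.46. DEPP1 fell from 308, 301 and 297 CPM to 84.9, 80.2 and 80.6 CPM (-1.88, SE 0.0307, adjusted p = 6.92e-18). FABP1, the abundant fatty acid binding protein of the hepatocyte, fell from 110, 122 and 111 CPM to 38.3, 34.0 and 37.1 CPM (-1.65, SE 0.0815, adjusted p = 2.16e-11). The absence of overlap between the groups was a condition for naming these genes. The phosphate transporter gene SLC17A2 (-1.39), the neurotrophic factor GDNF (-1.39) and the adhesion molecule L1CAM (-1.37) completed the 12 together with CCN1 and IGFBP1. At 0 h the means were 1.01 CPM for MUC5B, 130 CPM for DEPP1 and 34.3 CPM for FABP1. These genes were chosen for a high level at 24 h, and a comparison with 0 h shares those libraries.

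**Figure D2:**
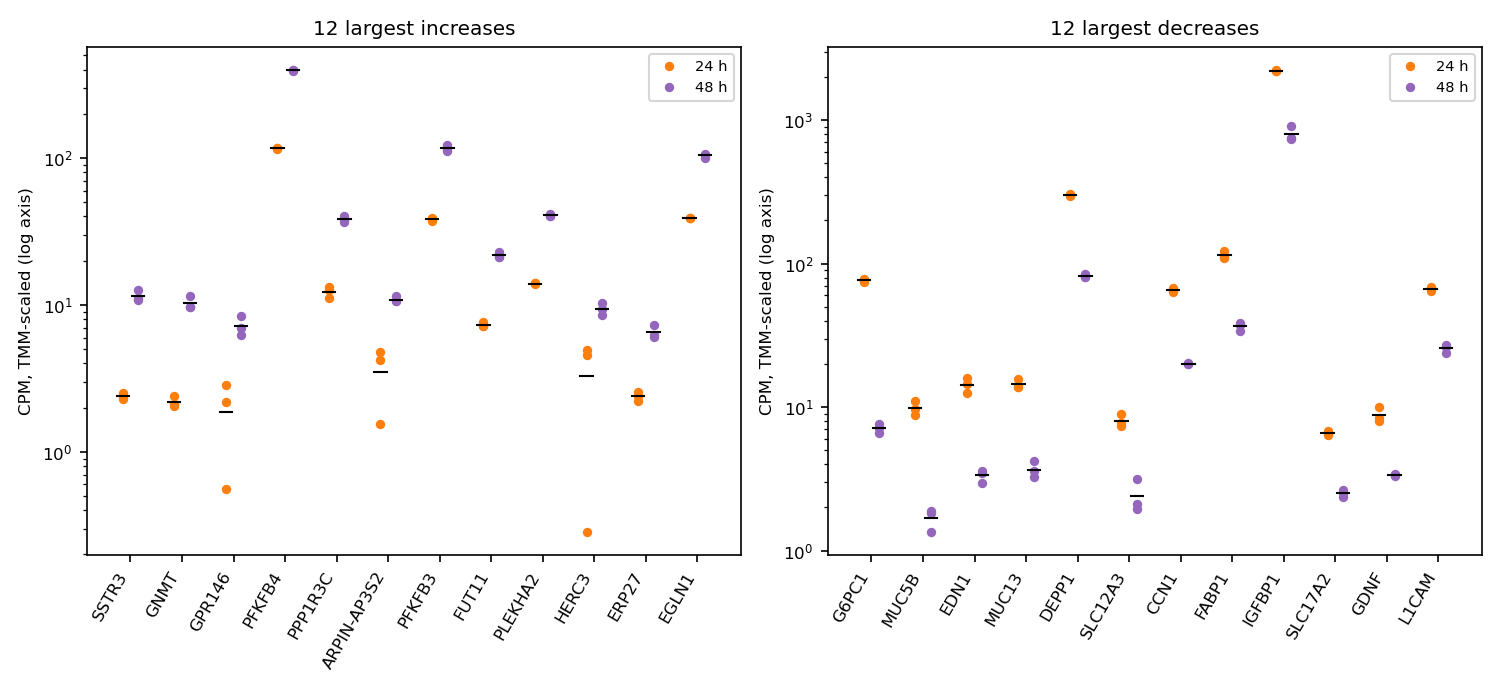
Levels in TMM-scaled CPM (log axis) of the 12 genes with the largest increase (left) and the 12 with the largest decrease (right) between 24 h (orange) and 48 h (purple) of hypoxia in HepG2; points are libraries and bars are means of 3. Genes were required not to overlap between the groups (42.8% of all genes tested did not), and the low points of HERC3 (0.286 CPM) and GPR146 (0.557 CPM) at 24 h lie far from their replicates.

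Among 19 genes of oxygen sensing, 12 were higher at 48 h and 1, the demethylase KDM6B, was lower. Of all genes tested, 18.7% were higher and 11.9% lower. The list had a median log2 fold change of 0.28. EGLN1, the hydroxylase that does most of the oxygen-dependent marking of HIF1A, stood at 39.1, 39.3 and 39.2 CPM at 24 h and at 106, 101 and 107 CPM at 48 h (log2 fold change 1.41, SE 0.0512, adjusted p = 3.49e-13). At 0 h EGLN1 had a mean of 39.8 CPM, and its 24 h level did not pass the test against it (log2 fold change -0.02, adjusted p = 0.850). EGLN3, the most inducible member of the same family, went from 38.01, 37.9 and 38.03 CPM to 46.9, 46.0 and 45.0 CPM (0.28, adjusted p = 0.000135), after 10.3 CPM at 0 h. Most of the rise of EGLN3 lay before 24 h (1.89 on the log2 scale against 0 h).

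The HIF-responsive demethylases KDM3A (55.2 to 107 CPM, log2 fold change 0.96) and KDM4B (91.0 to 152 CPM, 0.74) rose, and so did ANKRD37, a small HIF target (2.83 to 4.98 CPM, 0.82). Messenger RNA of the alpha subunits themselves rose by less: HIF1A from 86.2, 83.6 and 87.1 CPM to 112, 105 and 115 CPM (0.37, adjusted p = 1.89e-06) and EPAS1 from 437, 420 and 424 CPM to 489, 480 and 491 CPM (0.19, adjusted p = 2.07e-07). VHL (-0.10) and HIF1AN (0.02) did not pass the test.

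The secreted factors that hypoxia is known to induce divided. Of 15 tested, 6 were higher and 8 lower at 48 h (median log2 fold change -0.37), against 18.7% and 11.9% of all genes tested. EPO, the erythropoietin gene, stood at 5.33, 5.77 and 6.35 CPM at 24 h and 13.1, 13.3 and 13.8 CPM at 48 h (log2 fold change 1.20, SE 0.0976, adjusted p = 1.98e-08), after 5.06, 4.55 and 6.18 CPM at 0 h. ADM, which encodes the vasodilator adrenomedullin, rose from 17.3, 14.5 and 15.1 CPM to 40.6, 39.2 and 40.8 CPM (1.36, SE 0.0683, adjusted p = 2.59e-11). ANGPTL4, an inhibitor of lipoprotein lipase, rose from 19.96 ± 0.853 to 32.6 ± 0.393 CPM (SD, n = 3). VEGFA, the angiogenic growth factor, had a small increase, from 99.2, 97.4 and 93.4 CPM to 106, 110 and 111 CPM (0.18, SE 0.0348, adjusted p = 0.000530).

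IGFBP1, the insulin-like growth factor binding protein of the liver, fell from 2199, 2230 and 2204 CPM to 740, 748 and 913 CPM (log2 fold change -1.47, SE 0.0681, adjusted p = 9.11e-12), where it remained above its 0 h mean of 297 CPM. EDN1 fell from 14.5, 15.9 and 12.6 CPM to 3.49, 2.97 and 3.57 CPM (-2.099, SE 0.158, adjusted p = 7.09e-09). The chemokine CXCL8 fell at a low level, from 2.54 to 0.979 CPM on average (-1.37, adjusted p = 0.000310).

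In the list of pH regulation, 1 of 8 tested genes was higher and 3 lower, against 18.7% and 11.9% of all genes tested. CA9, the membrane carbonic anhydrase that is among the steepest HIF targets, had risen from a mean of 12.1 CPM at 0 h to 203, 200 and 209 CPM at 24 h, and stood at 95.2, 92.0 and 101 CPM at 48 h (log2 fold change 48 h against 24 h -1.09, SE 0.0538, adjusted p = 2.25e-11). Of its exon bases, 38.5% lie in another gene as well. The same holds for 44.6% of those of ASNS, 43.4% of CEBPA, 43.2% of CDK4, 41.2% of DDIT4, 35.2% of ANKRD37, 31.8% of SERPINA3, 28.1% of WIPI1, 23.3% of DEPP1 and 20.2% of RRM2, so their values are less certain. BSG, the chaperone of the lactate transporters, fell from 1404 to 1135 CPM, and the lactate exporter SLC16A3 rose from 745 to 840 CPM. Of 11 collagen hydroxylases and lysyl oxidases, 2 were higher and 6 lower (median -0.30), with PLOD2 at 0.36 and LOX at -0.40 in log2 fold change.

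**Figure D3:**
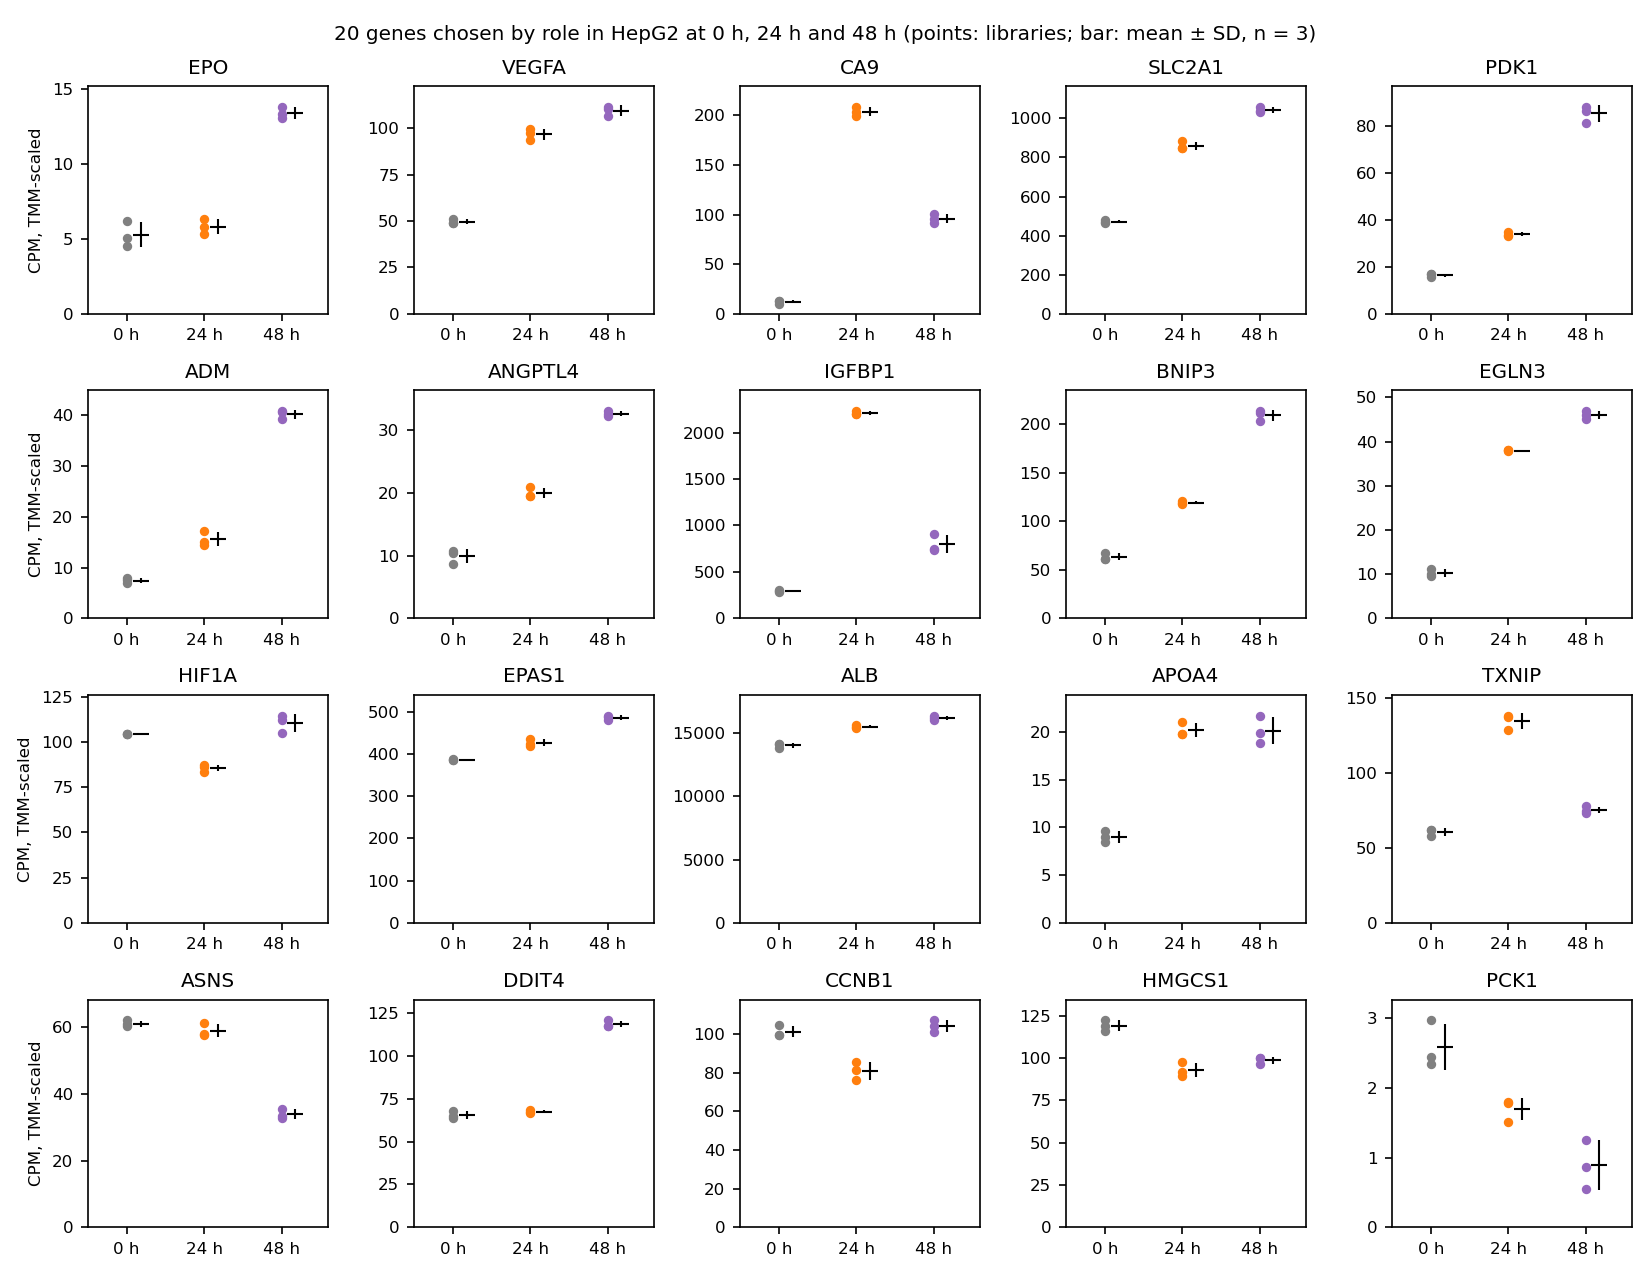
Levels in TMM-scaled CPM (linear axes from 0) of 20 genes chosen by role in HepG2 at 0 h, 24 h and 48 h; points are libraries and the bar beside them is the mean ± SD (n = 3). EPO, PDK1, ADM and DDIT4 are highest at 48 h, CA9, IGFBP1 and TXNIP are highest at 24 h, and the libraries of APOA4 overlap between 24 h and 48 h.

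Genes of cell division were higher at 48 h almost throughout. Of 28 DNA replication genes, 24 were higher and 1 (CCNE1) was lower, with a median log2 fold change of 0.46, and of 25 genes of mitosis and G2/M, 24 were higher and none lower, with a median of 0.51. The counts of this paragraph stand against a background of 18.7% higher and 11.9% lower among all genes tested. No member of either list passed the 2-fold limit. TOP2A, the topoisomerase that untangles replicated chromosomes, rose from 118, 127 and 127 CPM to 214, 218 and 215 CPM (0.80, SE 0.0315, adjusted p = 1.12e-12). RRM2, the regulated subunit of ribonucleotide reductase, rose from 97.9, 95.6 and 102 CPM to 152, 156 and 160 CPM (0.67, SE 0.0376, adjusted p = 1.39e-10), and its partner RRM1 by 0.75. CCNB1, the cyclin of mitotic entry, rose from 76.1, 85.6 and 81.2 CPM to 104, 107 and 101 CPM (0.37, SE 0.0410, adjusted p = 1.26e-06). At 0 h the means were 159, 120, 44.4 and 101 CPM for TOP2A, RRM2, RRM1 and CCNB1. In the list of G1 cyclins, inhibitors of cyclin-dependent kinases and p53 targets, 11 of 19 tested genes were higher and 2 lower (median 0.18). CDK4 (0.47), FAS (0.49) and TP53I3 (0.58) rose, and CDKN1A, the p21 inhibitor, fell by 0.28 on the log2 scale.

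The messenger RNAs of the mitochondrial genome fell together: all 13 were lower at 48 h, with log2 fold changes from -0.93 to -0.32 and a median of -0.76. MT-ND2, a subunit of complex I, stood at 3467, 3528 and 3470 CPM at 24 h and 1860, 1818 and 1830 CPM at 48 h (-0.93, SE 0.0160, adjusted p = 1.33e-17). MT-CYB, of complex III, went from 3064, 3101 and 3134 CPM to 1737, 1752 and 1758 CPM (-0.83, SE 0.0176, adjusted p = 1.86e-16). The respiratory chain subunits that the nucleus encodes did not follow. Of 80 tested, 32 were higher and none lower, with a median of 0.12 and small single changes such as NDUFA5 (0.46, complex I) and ATP5MC1 (0.38, ATP synthase). Of 13 genes of mitophagy and autophagy, 3 were higher and 3 lower, against 18.7% and 11.9% of all genes tested. The HIF-induced mitophagy receptors BNIP3 (118, 121 and 119 CPM to 213, 211 and 203 CPM, 0.81, adjusted p = 1.91e-12) and BNIP3L (61.3 to 116 CPM on average, 0.92) rose, and the autophagy initiators ULK1 (-0.56) and WIPI1 (-0.60) fell. Of 83 cytosolic ribosomal protein genes, 39 were lower and 4 higher (median -0.12, or -0.03 with library sizes alone), led by RPL36A (-0.47) and RPL26 (-0.47). Ribosomal protein genes have many near-identical processed copies, and how reads were shared among them is not stated.

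Targets of ATF4, the transcription factor of the amino acid response, and genes of amino acid supply, taken as 1 list, were mostly lower. Of 33 tested, 20 were lower and 6 higher (median log2 fold change -0.26), against 11.9% and 18.7% of all genes tested. ASNS, the asparagine synthetase and the classic ATF4 target, fell from 57.7, 61.2 and 58.1 CPM to 35.6, 33.3 and 32.8 CPM (-0.80, SE 0.0475, adjusted p = 2.69e-10). ATF3, a stress-induced repressor, fell from 14.5, 14.6 and 13.2 CPM to 6.01, 7.75 and 5.58 CPM (-1.13, adjusted p = 5.44e-07) and CEBPB, the liver-enriched partner of ATF4, from 24.9, 27.8 and 21.2 CPM to 8.65, 8.27 and 12.6 CPM (-1.32, adjusted p = 0.00184). DDIT4, an inhibitor of mTORC1 that HIF1A also induces, rose from 67.4, 68.4 and 66.4 CPM to 117, 121 and 117 CPM (0.81, SE 0.0435, adjusted p = 6.26e-11). Of 20 genes of endoplasmic reticulum folding and the unfolded protein response, 12 were lower and 2 higher (median -0.16). The chaperone HSPA5 fell from 1474, 1485 and 1540 CPM to 1059, 1067 and 1052 CPM (-0.50, adjusted p = 3.47e-13) and HYOU1, a chaperone that hypoxia induces, by 0.51 on the log2 scale. The 0 h mean was 981 CPM for HSPA5 and 676 CPM for HYOU1, which had 598 CPM at 48 h.

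Of 25 immediate early genes, 16 were lower at 48 h and none higher, against 11.9% and 18.7% of all genes tested. All 25 fold changes were negative (median -0.51). CCN1 and CCN2, matricellular proteins and targets of YAP, fell from 63.5, 68.0 and 65.0 CPM to 20.1, 19.9 and 20.2 CPM (-1.71, SE 0.0554, adjusted p = 7.94e-14) and from 768, 762 and 747 CPM to 308, 311 and 313 CPM (-1.29, SE 0.0491, adjusted p = 7.10e-13). SOCS3, the feedback inhibitor of cytokine signalling, fell from 3.44 to 1.57 CPM (-1.12) and the zinc finger factor KLF6 from 50.4 to 29.1 CPM (-0.79). The 0 h means of CCN1, CCN2, SOCS3 and KLF6 were 24.0, 347, 1.82 and 29.3 CPM. FOS (-0.20) and NFKBIA (-0.10) did not pass the test.

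The lipid lists had members in both directions and medians near 0. Of 24 genes of cholesterol synthesis and uptake, 10 were lower and 5 higher, against 11.9% and 18.7% of all genes tested. IDI1, an isomerase of the pathway, rose from 47.1 to 62.8 CPM on average (log2 fold change 0.41), and DHCR7, the reductase of its last step, fell from 760.2 to 577 CPM (-0.40). HMGCS1, the synthase of the first committed precursor, stood at 89.5, 91.5 and 97.8 CPM and 96.3, 100 and 99.8 CPM with overlapping groups (0.09, adjusted p = 0.0805). With library sizes alone HMGCS1 passed the test (0.17, adjusted p = 0.000905).

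Of 22 genes of fatty acid and triglyceride synthesis, 8 were lower and 5 higher, against 11.9% and 18.7% of all genes tested. The list also held TXNIP and ARRDC4, which act on glucose uptake and are counted among the 8 lower genes. DGAT1 and DGAT2, the enzymes of the last step of triglyceride synthesis, both rose, DGAT1 from 82.5, 83.4 and 87.6 CPM to 156, 150 and 156 CPM (0.86, SE 0.0336, adjusted p = 9.28e-13) and DGAT2 from 68.3, 66.5 and 66.2 CPM to 108.7, 111 and 107 CPM (0.70, SE 0.0460, adjusted p = 1.10e-09). Both had been higher still at 0 h, at 215 and 146 CPM. TXNIP and ARRDC4, arrestin-like targets of the glucose sensor MLXIPL that restrain glucose uptake, fell, TXNIP from 138, 137 and 129 CPM to 77.8, 73.5 and 74.6 CPM (-0.84, SE 0.0346, adjusted p = 1.89e-12) and ARRDC4 from 10.2 to 4.61 CPM (-1.14).

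Among lipid droplet proteins, 2 of 13 were higher and 2 lower, near the 18.7% and 11.9% of all genes tested. The lower ones, PNPLA2 (-0.13) and PLIN3 (-0.12), each lost the test in 6 settings, among them library sizes alone (adjusted p = 0.376 and 0.467). HILPDA, the hypoxia-induced inhibitor of the lipase PNPLA2, rose from 11.8, 11.1 and 14.3 CPM to 23.6, 23.0 and 23.4 CPM (0.92, SE 0.0759, adjusted p = 2.61e-08), and the droplet coat PLIN2 rose from 377, 372 and 378 CPM to 508, 507 and 507 CPM (0.43, adjusted p = 3.03e-11). Of 25 genes of fatty acid oxidation and PPARA targets, 8 were higher and 8 lower, from FABP1 (-1.65) to EHHADH (0.51, a peroxisomal enzyme), and PPARG fell by 0.51 on the log2 scale. Of 16 tested apolipoproteins and assembly factors, 2 were higher and 7 lower, with APOM at -0.80, an apolipoprotein of HDL. APOA4 stood at 19.8, 19.8 and 21.03 CPM at 24 h and 18.9, 19.9 and 21.7 CPM at 48 h, with a log2 fold change of -0.01 (SE 0.0782, adjusted p = 0.979). Its rise from 9.03 CPM at 0 h lay before 24 h. The groups overlapped between 24 h and 48 h, the sign of the change turned with the scaling, and 43.1% of the exon bases of APOA4 lie in another gene. The medians of the lists of cholesterol (-0.07), fatty acid and triglyceride synthesis (-0.08), lipid droplets (-0.04) and apolipoproteins (-0.06) turned positive with library sizes alone, and that of fatty acid oxidation (0.03) turned negative with DESeq2's size factors.

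Plasma protein genes moved apart. Of 34 tested, 19 were lower and 9 higher (median -0.22), against 11.9% and 18.7% of all genes tested. The summed level fell from 86130 to 86379 CPM at 24 h to 68688 to 69734 CPM at 48 h. AHSG, the gene of fetuin-A, fell from 14117, 14067 and 14007 CPM to 8794, 8593 and 8624 CPM (-0.70, SE 0.0164, adjusted p = 8.24e-16). SERPINA3, an acute-phase protease inhibitor, fell from 2265, 2293 and 2252 CPM to 1150, 1108 and 1158 CPM (-0.996, adjusted p = 4.68e-15), close to the 2-fold limit. The 0 h means of AHSG and SERPINA3 were 7462 and 1106 CPM. HPX, the haem scavenger hemopexin, rose from 18.2, 17.2 and 17.9 CPM to 34.3, 38.5 and 35.0 CPM (1.02, SE 0.0715, adjusted p = 2.93e-09). ALB, the albumin gene, changed little, with 15361, 15476 and 15584 CPM at 24 h and 16351, 15998 and 16154 CPM at 48 h (0.06, adjusted p = 0.0118), and with DESeq2's size factors it did not pass the test (0.03, adjusted p = 0.367).

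Of 18 hepatocyte transcription factors, 8 were higher and 3 lower (median 0.21). CEBPA rose from 115, 117 and 114 CPM to 177, 174 and 187 CPM (0.64, adjusted p = 2.18e-09), after 225 CPM at 0 h, the bile acid receptor NR1H4 from 29.3 to 39.9 CPM (0.45), and FOXA2 fell from 58.6, 65.0 and 50.9 CPM to 24.6, 30.5 and 39.8 CPM with a wide spread (-0.88, SE 0.195, adjusted p = 0.00172). Of 25 tested genes of drug metabolism and bile acid synthesis, 6 were higher and 3 lower (median 0.04), near the 18.7% and 11.9% of all genes tested. They included the glutathione transferases GSTA1 (20.8 to 47.2 CPM, 1.18) and GSTA2 (0.830 to 3.73 CPM, 2.17), which are near-identical paralogs whose reads the counting may have split, the sulfotransferase SULT2A1 (0.70) and the P450 reductase POR (-0.59). Of 19 targets of NRF2, the factor of the oxidative stress response, 16 were higher and 3 lower (median 0.32). NQO1, a quinone reductase, rose from 303, 307 and 312 CPM to 481, 467 and 475 CPM (0.63, SE 0.0280, adjusted p = 5.43e-12), and the haem oxygenase HMOX1 (0.69) and AKR1B10 (0.74) rose alike. These 3 genes were at 564, 64.5 and 22.8 CPM at 0 h, above or near their 48 h values.

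**Figure D4:**
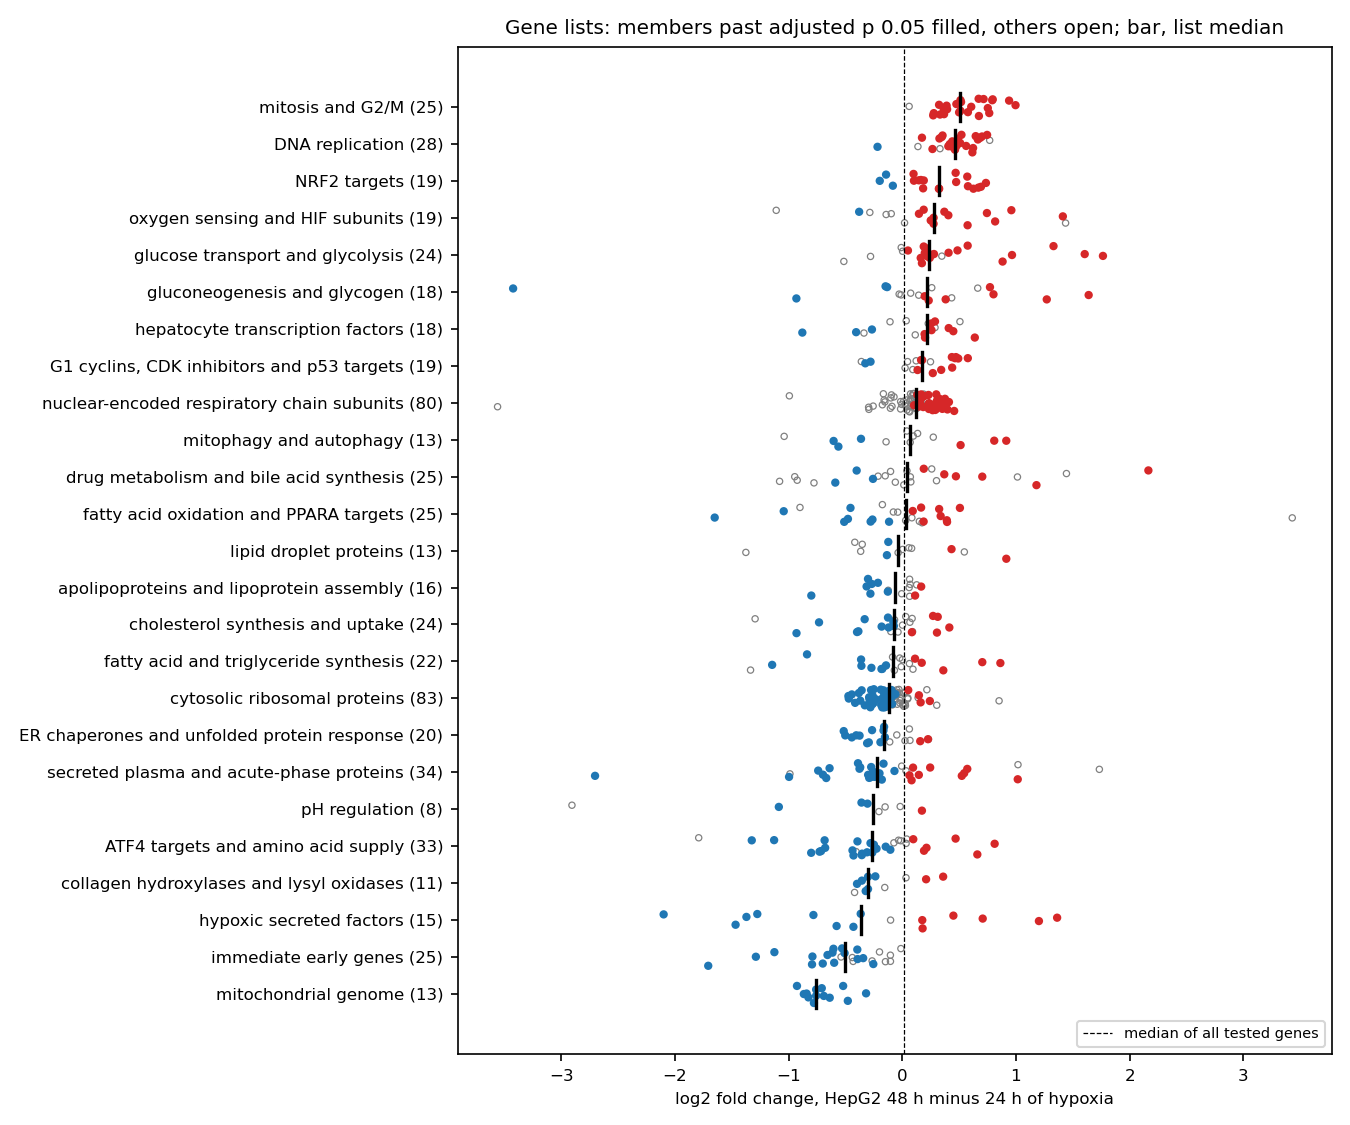
Log2 fold change of HepG2 at 48 h against 24 h for every tested member of 25 gene lists (number of members in brackets), ordered by list median (bar); filled points passed an adjusted p of 0.05 and open points did not. The lists of mitosis (median 0.51) and DNA replication (0.46) lie at the top, those of the immediate early genes (-0.51) and the mitochondrial genome (-0.76) at the bottom, and the dashed line is the median of all genes tested (0.01).

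The step from 24 h to 48 h was different in APOA4-KO, which shares no library with the HepG2 step. APOA4 itself stood at 8.25, 7.51 and 8.04 CPM in APOA4-KO at 24 h and 7.65, 8.54 and 8.44 CPM at 48 h, below every HepG2 library of the same times. In APOA4-KO, 398 genes were higher (2.02% of those tested) and 719 lower (3.64%) at 48 h past both limits. Of the 136 genes higher in HepG2, 7 were also higher in APOA4-KO, which is 5.15% of the HepG2 list and 1.76% of the APOA4-KO list, and 17 were lower there. Of the 282 lower in HepG2, 24 were also lower in APOA4-KO (8.51% and 3.34% of the lists), and 29 were higher. Across the 10364 genes with at least 500 counts in a group the log2 fold changes of the 2 steps had a Pearson correlation of -0.20, and over all 19743 it was 0.02. The points share the TMM scaling and the fit.

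The difference between the lines in the step itself passed both limits for 1712 genes (8.67% of those tested), 777 with a more positive step in APOA4-KO and 935 with a more negative one. With library sizes alone the split was 492 and 1621, and the median of this difference over all genes moved from -0.05 to -0.27 on the log2 scale. With DESeq2's size factors it was 899 and 831, so which direction held more genes depended on the scaling. Without single libraries the more positive genes numbered 728 to 776 and the more negative 904 to 1013. For genes that the HepG2 step chose, this contrast holds the same HepG2 libraries and is not independent of the choice. PFKFB4 had a step of 0.04 in APOA4-KO, where it stood at 317, 317 and 326 CPM at 24 h and 320, 335 and 331 CPM at 48 h, against 116 and 395 CPM on average in HepG2. EGLN1 went from 107 to 92.4 CPM, GYS1 from 192 to 169 CPM, PDK1 from 89.1 to 65.7 CPM and EPO from 14.5 to 13.05 CPM in APOA4-KO. The 24 h means of APOA4-KO lay above the 48 h means of HepG2 for EGLN1 (104 CPM), PDK1 (85.3 CPM) and EPO (13.4 CPM), and below for GYS1 (213 CPM).

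G6PC1 stood at 157, 157 and 155 CPM in APOA4-KO at 24 h and 245, 255 and 260 CPM at 48 h, a step of 0.70 where that of HepG2 was -3.42. EDN1 (2.25 in APOA4-KO, -2.099 in HepG2), CCN1 (2.597, -1.71) and DEPP1 (1.53, -1.88) rose in APOA4-KO and fell in HepG2. Of the DNA replication genes, 26 of 28 were lower and 1 higher at 48 h in APOA4-KO (background 19.4% lower and 21.9% higher), with a median of -0.85 where HepG2 had 0.46, and the difference between the lines passed an adjusted p of 0.05 for all 28 (39.4% of all genes tested). The immediate early genes had 19 of 25 higher and none lower, with a median of 1.02. A difference was not shown for some genes. HILPDA rose by 0.84 in APOA4-KO and 0.92 in HepG2 (difference -0.08, SE 0.106, adjusted p = 0.630) and SULT2A1 by 0.63 and 0.70 (difference -0.07, SE 0.0723, adjusted p = 0.482).

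**Figure D5:**
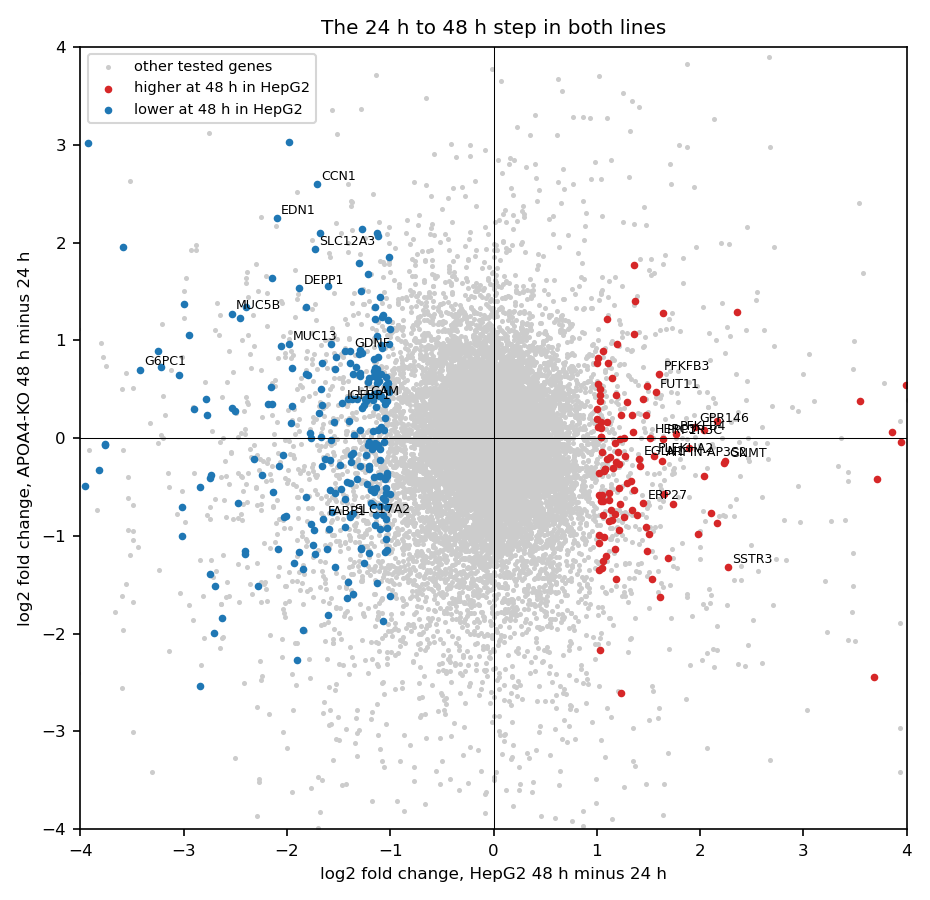
Each point is a tested gene, placed by its log2 fold change from 24 h to 48 h of hypoxia in HepG2 (x axis) and in APOA4-KO (y axis); 611 of 19743 genes lie beyond the axes at 4. The genes higher (136) and lower (282) past both limits in HepG2 are coloured, and G6PC1, EDN1, CCN1 and DEPP1 lie in the upper left, lower in HepG2 and higher in APOA4-KO.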

How the data were processed

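RNA of 18 libraries (150-base reads, poly(A) selection) was sequenced by the study. The authors deposited a table of counts per gene and a table of FPKM values, both without pooling of replicates. The study's methods name fastp, HISAT2, GRCh38.p13 and featureCounts, and the submitters' processing notes list StringTie in place of featureCounts. Whether counting used strand is not given in the sources used here. Counts of 4, 8 and 12 were in excess of their neighbours, so a count need not be 1 read pair, and counting error is uncertain.

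Counts were fitted in edgeR 4.0.16 (R 4.3.3) by the quasi-likelihood test, with TMM scaling, filterByExpr and 1 coefficient for each of 6 groups over all 18 libraries, so that all groups shared an estimate of the spread. P-values were adjusted by Benjamini-Hochberg over 19743 genes of 61806 listed. The 2 limits were an adjusted p of 0.05 and a 2-fold change. CPM are TMM-scaled and levels between genes were compared only in FPKM. DESeq2 1.42.0, limma 3.58.1 on the deposited FPKM and further settings served as alternatives. Replicates were kept apart. Within each HepG2 group of the step, every pair differed by more than sampling noise would give if each count were 1 independent read. A count need not be 1 read pair, so this does not settle how far replicates differed.

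Named genes were the 12 largest changes in each direction that averaged 500 counts or more where they were higher, had 10 or more in every library and did not overlap, up to 4 genes of each list that averaged 100 counts or more, 20 genes by role, and the 5 largest line differences in each direction. Other list members are named as examples chosen after their values were seen. The comparison, the lists and the named genes were chosen with earlier results of these data known. Promoter windows came from RefSeq (GRCh38.p14). Scripts were tested on simulated data. Some named genes are not reported here.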

Additional observations from a re-analysis of the deposited data

Results flagged for a closer look

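The 24 h to 48 h step of 1712 genes differed between APOA4-KO and HepG2 past both limits by the test of the difference itself (edgeR, adjusted over all genes). Among the genes named for the largest changes or line differences, the step was more positive in APOA4-KO, by the log2 difference given, for ROBO4 (5.01), EDN1 (4.35), CCN1 (4.30), G6PC1 (4.12), MUC5B (3.81), SLC12A3 (3.67), DEPP1 (3.41), MUC13 (2.94), GDNF (2.28), IGFBP1 (1.82) and L1CAM (1.76). ROBO4, a guidance receptor, went from 2.82 to 0.707 CPM in HepG2 and from 4.66 to 37.96 CPM in APOA4-KO. Mean levels in HepG2 at 24 h and 48 h were low, at 0.397 and 0.107 FPKM for ROBO4 and 0.497 and 0.09 FPKM for MUC5B. Across settings the difference ranged from 2.21 to 5.53 for ROBO4 and from 0.64 to 4.02 for MUC5B, against 3.29 to 4.19 for G6PC1. The step was more negative in APOA4-KO for SSTR3 (-3.58), FAM111B (-3.20), E2F7 (-2.81), GSTA1 (-2.62), GNMT (-2.48), PPP1R3E (-2.38), ERP27 (-2.12), GPR146 (-1.84), PLEKHA2 (-1.74), PFKFB4 (-1.73), PPP1R3C (-1.65), EGLN1 (-1.63) and FUT11 (-1.10). E2F7, a repressor of cell cycle genes, went from 7.504 to 12.5 CPM in HepG2 and from 9.91 to 2.35 CPM in APOA4-KO. The range of the difference over settings was -3.80 to -1.70 for SSTR3, -3.44 to -1.61 for FAM111B and -3.03 to -1.43 for E2F7. The genes of the HepG2 step were chosen on the HepG2 libraries that this contrast also holds. APOA4-KO is 1 edited line, so the edit and the line cannot be told apart.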

How the results depend on the processing

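The count of 418 genes past both limits in the HepG2 step became 49 (32 higher, 17 lower) in limma on log2(FPKM + 1), 268 (125 lower) on log2(FPKM + 0.1) and 29 (13 higher, 16 lower) when glmTreat tested against the 2-fold limit itself. DESeq2 gave 429 lower genes. The 1712 line differences became 485 on log2(FPKM + 1) and 473 with glmTreat. The log scale with a pseudocount shrinks changes of low genes, where most calls lay. The part of that shrinkage in the smaller counts, and that of the different test and scaling, was not tested. Leaving out 1 HepG2 library gave 356 to 397 genes. With a replicate block the split was 129 higher and 258 lower, and 113 and 231 in the 6 libraries alone. Same-numbered libraries had correlations of -0.0136, 0.0345 and -0.024, so the numbers were not taken to pair them. Counts divided by 4, an alternative chosen after seeing the data, gave 129 and 267. APOA4, which did not pass the test, turned positive with library sizes alone (0.0815), on log2(FPKM + 1) (0.0755) and log2(FPKM + 0.1) (0.0804), and ranged from -0.046 to 0.0518 without single libraries. Under the same 3 settings in that order the medians turned to 0.0222, 0.0197 and 0.021 for apolipoproteins, to 0.0158, 0.0156 and 0.0161 for cholesterol and to 0.0092, 0.0099 and 0.011 for fatty acid and triglyceride synthesis, and that of lipid droplets to 0.0503 and 0.0035 under the first and second. Without single libraries it ranged from -0.1345 to 0.0384, the latter without HepG2 48 h replicate 1. The median of fatty acid oxidation became -0.0071 with DESeq2's size factors, -0.003 in DESeq2, -0.0402 in the 6 libraries, -0.028 in the 9 HepG2 libraries, -0.039 with the replicate block in the 6 libraries and ranged from 0.0 (without HepG2 48 h replicate 3) to 0.0508 without single libraries. The cause of these reversals was not tested.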

Other observations

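FN1, which encodes fibronectin, was chosen after its values were seen. It took 2.92% of the counts of HepG2 at 24 h and 1.71% at 48 h, after 1.66% at 0 h. Its log2 fold change from 24 h to 48 h was -0.86 (SE 0.0153, adjusted p = 1.63e-17), and 0.20 in APOA4-KO (adjusted p = 3.11e-09).

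The ribosomal RNAs of the mitochondrial genome, also chosen after their values were seen, did not fall with its 13 messenger RNAs in HepG2. MT-RNR1 had a log2 fold change of 0.28 (SE 0.0287, adjusted p = 4.03e-07) and MT-RNR2 of 0.06 (SE 0.0171, adjusted p = 0.0124). Poly(A) selection captures ribosomal RNA incompletely, and the part of that capture in these values was not tested.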
